A study of Homo sapiens with 56 samples.

Results

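JEKO-1 is an established human line of mantle cell lymphoma, a cancer of B cells. Its poly-A RNA-seq libraries labelled IBR_CLF (2 libraries) were compared with those labelled IBR (3 libraries), which makes 5 of the 56 libraries of the series and answers what CLF adds to IBR in these cells. IBR is read as ibrutinib, because the design text names a BTK inhibitor. The labels do not say what CLF is, and they give no dose or time. The rest of the series holds 3 further mantle cell cultures, MINO-P, MINO-VR and Z138, of which 14 libraries carry the same pair of labels, and JEKO-1 libraries labelled CON (1, taken as untreated), CLF (2), BTZ (3), BTZ_CLF (2), YM155 (1) and S63845 (1). No genetic change is labelled in any group. The libraries of a group are of 1 line, and nothing in the labels says that they came from separate cultures, so the p-values below measure the spread between these libraries only.

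BTK carries the signal of the B-cell receptor towards NF-kB, a family of transcription factors held in the cytoplasm by IkB proteins and released when those are degraded. The classical branch acts through NFKB1, RELA and REL, the alternative branch through NFKB2 and RELB, and both switch on their own inhibitors, chemokines and survival genes. Cells make cholesterol and unsaturated fatty acids through enzymes whose genes are switched on by the SREBP factors when membrane sterol is low. The heat shock response is a separate programme in which HSF1 switches on chaperones when proteins misfold. As a check of the label, 7 B-cell markers summed to 926 to 946 CPM (read counts scaled to a sum of 1e+06 per library, here with mitochondrial genes left out) in IBR and 901 to 960 CPM in IBR_CLF. Members of the sum went both ways: MS4A1 (CD20) was at 312, 320 and 326 CPM in IBR and at 525 and 564 CPM in IBR_CLF and was called higher, and CD79B, given below, was called lower. On the wider list of 12 B-cell and mantle cell markers 2 rose and 2 fell, against 5.94% of all tested genes called higher and 8.89% lower. The sum of CCND1, SOX11 and CD5, which mark mantle cell lymphoma, was 952 to 1130 CPM in IBR and 804 to 913 CPM in IBR_CLF. The 3 T-cell markers summed to at most 0.888 CPM in any of the 5 libraries, with CD3E at 0 in all 5, and the 3 myeloid markers to at most 5.97 CPM. The 3 stromal and endothelial markers summed to 14.7 to 30.3 CPM in IBR and 18.4 to 21.7 CPM in IBR_CLF, and the 3 epithelial markers to 4.2 to 9.09 and 3.04 to 12.4 CPM. COL1A1, a fibroblast collagen gene, was at 0.357, 0.161 and 8.36 CPM in IBR and at 12.4 and 11.4 CPM in IBR_CLF, with COL1A2 at 0 in all 5, and its part in the results was not tested.

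The results turn on 3 groups of genes, and the 250 bases before the start site of a few of their members are printed here from RefSeq (GRCh38.p14), 5′ to 3′ on the gene's strand, so that the letters the textbook factors bind can be seen. For the heat shock genes the capitals mark GAANNTTC, the core of the heat shock element, where N is any base.
HSPA6, chr1:161524290-161524539, plus strand: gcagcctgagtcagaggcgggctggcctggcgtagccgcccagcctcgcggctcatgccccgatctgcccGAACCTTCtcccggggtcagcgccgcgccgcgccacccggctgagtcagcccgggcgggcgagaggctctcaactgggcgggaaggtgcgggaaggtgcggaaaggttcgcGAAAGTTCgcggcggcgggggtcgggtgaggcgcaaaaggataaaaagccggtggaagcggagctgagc
HSPB1, chr7:76302423-76302672, plus strand: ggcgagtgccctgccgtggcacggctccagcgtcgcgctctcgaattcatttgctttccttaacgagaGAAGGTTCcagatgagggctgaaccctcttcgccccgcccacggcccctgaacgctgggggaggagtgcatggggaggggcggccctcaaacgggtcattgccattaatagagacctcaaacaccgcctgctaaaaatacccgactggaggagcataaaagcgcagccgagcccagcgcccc
For the NF-kB genes the capitals mark matches of the kappaB consensus.
NFKBIA, chr14:35404750-35404999, minus strand: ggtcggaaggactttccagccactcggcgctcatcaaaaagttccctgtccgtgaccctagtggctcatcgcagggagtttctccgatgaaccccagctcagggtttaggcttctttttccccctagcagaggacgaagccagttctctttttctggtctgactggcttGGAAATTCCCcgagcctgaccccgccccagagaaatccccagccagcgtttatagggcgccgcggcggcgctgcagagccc
TNFAIP3, chr6:137867009-137867258, plus strand: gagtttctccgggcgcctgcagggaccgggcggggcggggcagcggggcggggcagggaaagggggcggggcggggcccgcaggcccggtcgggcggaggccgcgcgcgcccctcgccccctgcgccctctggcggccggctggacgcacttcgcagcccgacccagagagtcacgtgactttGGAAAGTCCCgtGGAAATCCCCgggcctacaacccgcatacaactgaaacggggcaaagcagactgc
BIRC3, chr11:102317234-102317483, plus strand: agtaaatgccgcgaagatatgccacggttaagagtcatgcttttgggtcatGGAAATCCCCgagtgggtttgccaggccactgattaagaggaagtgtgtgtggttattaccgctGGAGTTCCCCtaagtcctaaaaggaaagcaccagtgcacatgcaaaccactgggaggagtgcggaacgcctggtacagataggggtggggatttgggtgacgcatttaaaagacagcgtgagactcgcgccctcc
CCL22, chr16:57358533-57358782, plus strand: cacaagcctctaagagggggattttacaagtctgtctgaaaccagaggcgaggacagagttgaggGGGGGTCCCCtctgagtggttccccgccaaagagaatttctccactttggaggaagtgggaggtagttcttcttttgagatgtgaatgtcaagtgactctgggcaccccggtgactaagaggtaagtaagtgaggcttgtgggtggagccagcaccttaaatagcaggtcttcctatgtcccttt
For SREBF2, which encodes an SREBP factor, they mark TCACCCCAC, a sterol element.
SREBF2, chr22:41832855-41833104, plus strand: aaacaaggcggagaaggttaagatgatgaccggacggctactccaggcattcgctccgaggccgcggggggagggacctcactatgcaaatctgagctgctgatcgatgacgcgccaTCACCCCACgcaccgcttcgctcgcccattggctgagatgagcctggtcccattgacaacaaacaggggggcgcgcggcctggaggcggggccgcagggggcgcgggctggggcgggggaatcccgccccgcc

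Over windows of 300 bases (250 before to 50 after the start, both strands searched), GAANNTTC was present in 8 of the 18 tested heat shock genes that had a window, or 44.4%, against 4.62% of the 10636 tested genes with a window and 6.87% of all 27305 windows. The kappaB consensus was present in 12 of 27 NF-kB genes (44.4%), against 6.48% of tested genes and 5.72% of all windows. It was present in 55 of 592 windows of genes called higher (9.29%) and in 69 of 1006 windows of genes called lower (6.86%), under the test described below. The sterol element TCACCCCAC was present in 1 of 26 windows of the sterol list and in 0.425% of all windows. GAANNTTC was present in 38 of the 592 windows of genes called higher and 44 of the 1006 windows of genes called lower, 6.42% and 4.37%. These are matches of letters and are given as a description.

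The libraries differed before any nuclear gene was compared. The 15 genes of the mitochondrial chromosome took 20.9%, 19.9% and 13.5% of the signal in the 3 IBR libraries (18.1% ± 4.02, SD, n = 3) and 60.7% and 59.1% in the 2 IBR_CLF libraries (59.9% ± 1.1, SD, n = 2). The groups did not overlap. JEKO-1 CLF libraries had 2.15% and 4.38% and the CON library 1.91%, while IBR_CLF in the other lines averaged between 6.05% and 9.61%. Recovered depth was 7.09, 7.73 and 15.6 M reads for IBR and 5.54 and 6.43 M reads for IBR_CLF, of which 2.18 and 2.63 M in IBR_CLF were not mitochondrial, against 5.61 to 13.5 M in IBR. A count of 3 reads was thus worth up to 1.38 CPM in IBR_CLF and up to 0.535 CPM in IBR. All values below leave out the mitochondrial genes and are rescaled to a sum of 1e+06, and the part of the mitochondrial share in the differences was not tested.

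**Figure D1:**
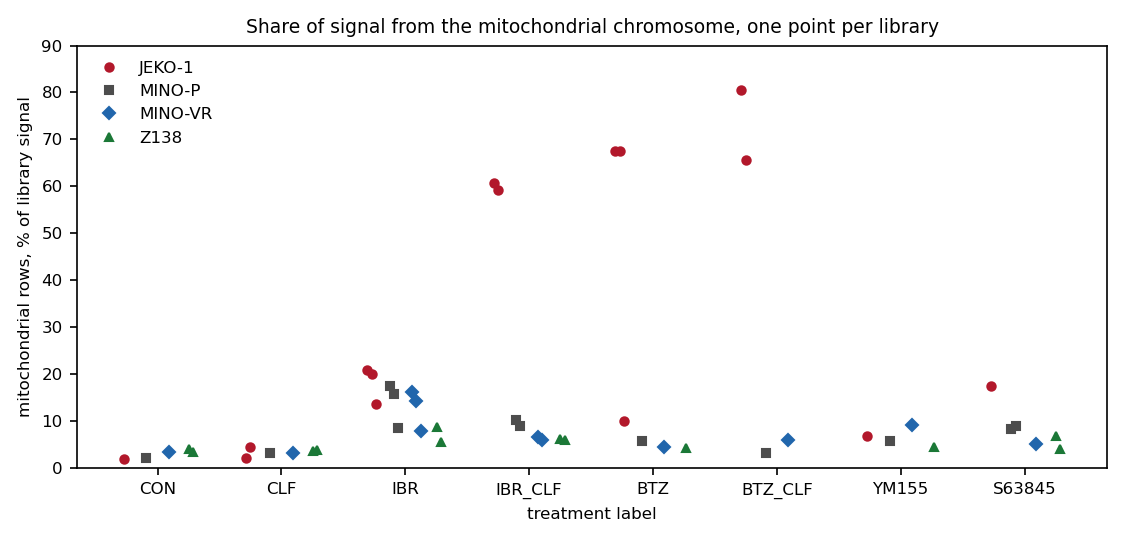
Share of each library's signal that came from the mitochondrial chromosome (y axis, percent), by treatment label (x axis) and cell line (colour and symbol), 1 point per library. The JEKO-1 IBR_CLF libraries lie at 60.7% and 59.1%, above the JEKO-1 IBR libraries at 13.5% to 20.9%, and the other lines' IBR_CLF libraries stay near 10% or below.

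The libraries fell into close pairs. Replicates 1 and 2 of IBR carry library names that differ only by a final letter, as do both IBR_CLF libraries. Chi-square per degree of freedom over recovered reads was 4.83 within the IBR pair and 4.17 within the IBR_CLF pair, so each pair differed by more than counting noise, but far less than IBR replicate 3 differed from the other IBR libraries (93.5 and 90.3). On the same measure IBR replicates 1 and 2 differed from the IBR_CLF libraries by 35 to 39.7, and IBR replicate 3 from them by 120 and 114. Replicate 3 thus lay farther from the other IBR libraries than the IBR_CLF libraries did, although Pearson's r across genes on the log2 scale was 0.963 and 0.965 for replicate 3 with replicates 1 and 2, against 0.952 to 0.954 for these with the IBR_CLF libraries. The measure grows with depth, and replicate 3 was the deepest of the 5. Whether the pairs are separate cultures is not stated. They were kept as separate libraries, and the results with each pair averaged into 1 sample stand beside them.

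Of 13834 genes tested with limma on log2(CPM + 1), 2052 were called at an adjusted p under 0.05. Of these, 822 rose with CLF (5.94% of genes tested) and 1230 fell (8.89%), and the median gene differed by -0.07 (log2). In bulk RNA, fewer cells with a transcript and less of it per cell cannot be told apart. In 3125 genes (22.6%) both IBR_CLF libraries lay above all IBR libraries, and in 4006 (29%) below. Leaving out IBR replicate 1, 2 or 3 gave 881, 792 and 4828 calls, and leaving out IBR_CLF replicate 1 or 2 gave 26 and 23. Without IBR replicate 3 the 4 libraries that remain are the 2 name pairs. Without either IBR_CLF library, members were still called only on the NF-kB, heat shock, sterol, immediate early and p53 lists among the 28 lists described below. With each pair averaged, no gene was called by limma, and 1386 had an unadjusted p under 0.05. With pairs averaged and the spread taken from all 56 libraries, 254 genes were called, 212 higher (1.23% of 17203) and 42 lower (0.244%), of which 154 were also among the 2052. That fit took its spread only from groups left with more than 1 sample (11 residual degrees of freedom). JEKO-1 IBR_CLF, 1 sample after averaging, was not among them. Z138 libraries whose names differ by a final letter were not averaged. Of the 2052 calls, 40.1% were rises, against 52.9% when size factors replaced totals. Long genes fell more often: from the shortest to the longest of 5 bins by longest transcript the median difference was 0.33, 0.08, -0.12, -0.23 and -0.41, and the number of genes called lower was 64, 161, 268, 317 and 419. The medians of the same bins were 0.15, -0.02, -0.14, -0.2 and -0.27 without IBR replicate 3. The part of this trend in the groups below was not tested, and the median length of each group is given where it is far from the median of all genes (3339 bases).

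The largest rises were in genes that were close to silent in JEKO-1 under IBR. NGFR (ENSG00000064300, chr17:49495293-49515009, hg38), a receptor of the tumour necrosis factor receptor family, was at 3.39, 2.26 and 0 CPM in IBR and at 327 and 270 CPM in IBR_CLF. The difference was 6.94 ± 0.61 (log2 of CPM + 1, SE), with an adjusted p of 0.00195. With pairs averaged over all 56 libraries the difference was 7.26. CX3CL1 (ENSG00000006210, chr16:57372477-57385045), a chemokine that can stay anchored in the membrane, was at 0.357, 0 and 0 CPM in IBR and at 107 and 123 CPM in IBR_CLF (6.71 ± 0.41, SE, adjusted p = 0.000637). In both genes the 2 groups lay far apart. FAM225A, a long non-coding RNA gene on chromosome 9 (113111624 to 113119929), was at 0.427, 0 and 0 CPM in IBR and at 126 and 139 CPM in IBR_CLF. CCL22, a chemokine that draws T cells bearing CCR4, was at 0, 0 and 0.814 CPM in IBR and at 44.1 and 35.4 CPM in IBR_CLF. EBI3, a subunit of the cytokines IL-27 and IL-35, was at 0, 0.161 and 0 CPM in IBR and at 52.8 and 46 CPM in IBR_CLF. For such genes the size of the log2 difference depends on the pseudocount of 1, and no fold is given.

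The other 7 of the 12 largest rises were HSPA6 and HSPA1A, described below, and ADGRG3, DUSP15, RTN4RL2, PRKAR1B-AS1 and CAPN5, with differences from 4.5 to 5.29. ADGRG3, an adhesion G-protein-coupled receptor, was at or under 0.357 CPM in IBR and at 46.8 and 42.6 CPM in IBR_CLF. CAPN5, a calpain protease, was at 2.5, 2.91 and 0 CPM in IBR and at 51.4 and 54.4 CPM in IBR_CLF. PRKAR1B-AS1 is an antisense gene and, as the use of strand is not given in the sources used here, its reads cannot be told apart from those of its partner. Of the 12 genes, 9 were also called with pairs averaged over 56 libraries. The 3 that were not were HSPA6, HSPA1A and PRKAR1B-AS1 (adjusted p = 0.6, 0.525 and 0.065). The spread of that fit includes JEKO-1 BTZ, where HSPA6 was at 5380, 5420 and 87.2 CPM and HSPA1A at 10200, 10000 and 141 CPM. The part of this spread in their results was not tested. For FAM225A, ADGRG3, CX3CL1 and NGFR the highest of the other 54 libraries held 2.57, 1.36, 7.28 and 8.46 CPM. The averaged fit thus took the spread of these 4 genes from libraries where they were nearly silent. JEKO-1 IBR_CLF was 1 sample in it, so passing there does not show that the rise repeats. In 8 of the 12 largest rises, both IBR_CLF libraries of JEKO-1 lay above each of the other 54 libraries of the series. These genes were chosen for high values in IBR_CLF, and the share over all genes is not given. EBI3, however, reached 81.7 CPM in the MINO-VR CLF library and CCL22 reached 132 CPM in a MINO-VR library labelled S63845.

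**Figure D2:**
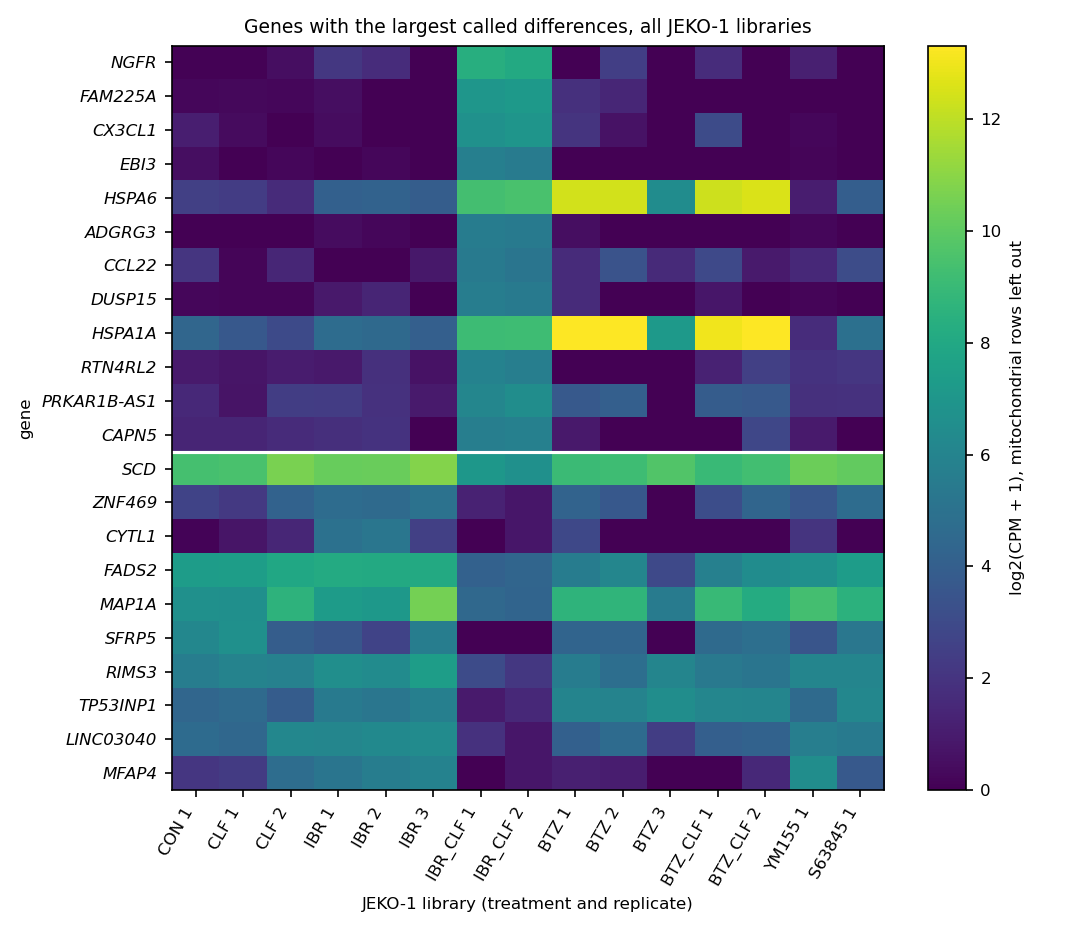
Levels of genes with the largest rises (above the white line) and the largest falls (below it) in all 15 JEKO-1 libraries, as log2(CPM + 1) by colour. NGFR reads 327 and 270 CPM in the IBR_CLF columns and at most 4.46 CPM in the others, while SCD reads 130 and 101 CPM there and at least 527 CPM in the others.

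Most genes of the NF-kB group rose. Of 33 genes on the list, 31 were tested, 23 rose, none fell, and the median difference was 2.19, against 5.94% of all tested genes called higher and a median of -0.07. In 26 of the 31 both IBR_CLF libraries lay above all IBR libraries, as they did in 22.6% of all tested genes. The count was 17, 16 and 27 without IBR replicate 1, 2 and 3, and 2 and 1 without IBR_CLF replicate 1 and 2. With pairs averaged it was 0 over the 5 libraries, where the median stayed at 2.1, and 7 over all 56. As deposited, with mitochondrial genes in the total, 17 rose and 4 fell. Members under 1 CPM in all IBR libraries entered the test only through IBR_CLF and could only rise. Among the 21 members with at least 1 CPM in all 5 libraries, 15 rose and none fell, at a median of 1.93. Of all 11209 genes that passed this stricter filter, 618 rose.

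Among the subunits, NFKB2 (p100, the alternative branch) was at 115, 98.5 and 64.8 CPM in IBR and at 964 and 952 CPM in IBR_CLF, a difference of 3.4 ± 0.25 (SE, adjusted p = 0.00115). Its partner RELB was at 71, 102 and 48 CPM in IBR and at 412 and 423 CPM in IBR_CLF. NFKB1 (p105) was at 55.3, 50.4 and 68.2 CPM in IBR and at 236 and 232 CPM in IBR_CLF, and REL rose less, by 1.13 ± 0.26 (SE). RELA was not called: it was at 165, 176 and 142 CPM in IBR and at 121 and 131 CPM in IBR_CLF (-0.35 ± 0.18, SE, adjusted p = 0.221). The genes for NFKB1, NFKB2, REL and RELB thus passed the test and the gene for RELA did not, although a difference of RELA from them was not tested.

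The inhibitors that NF-kB induces rose as well. NFKBIA, the IkB-alpha gene whose promoter is shown above, was at 43.2, 40.4 and 31.3 CPM in IBR and at 172 and 181 CPM in IBR_CLF. TNFAIP3 (A20), an enzyme that shuts the pathway off, was at 15.2, 14.7 and 13.5 CPM in IBR and at 93.7 and 124 CPM in IBR_CLF (2.82 ± 0.25, SE, adjusted p = 0.00195, and 0.0299 with pairs averaged over 56 libraries). NFKBIE and NFKBIZ rose by 1.93 and 2.2. Each of these 4 had both IBR_CLF libraries above all IBR libraries. MAP3K14, the kinase at the head of the alternative branch, overlapped between the groups (14.3, 17.9 and 34.6 CPM against 16.1 and 19.8 CPM).

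Among surface receptors and adhesion genes, CD40 was at 15.5, 17 and 2.96 CPM in IBR and at 78.1 and 103 CPM in IBR_CLF (adjusted p = 0.0199, and 0.0416 with pairs averaged over 56 libraries). ICAM1, the ligand of the integrin LFA-1, was at 44.2, 29.1 and 26.8 CPM in IBR and at 186 and 209 CPM in IBR_CLF. CD83, an activation marker of B cells, rose by 2.88. CD44, the hyaluronan receptor, was at 13.6, 11.5 and 20.1 CPM in IBR and at 118 and 121 CPM in IBR_CLF (2.95 ± 0.29, SE, adjusted p = 0.00221, and 0.0241 with pairs averaged over 56 libraries). All 4 were clear of the IBR range. On the list of homing receptors, chemokines and adhesion, 7 of 20 tested members rose and 1 fell, or 3 and 0 with pairs averaged over 56 libraries and 0 without either IBR_CLF library. Of all tested genes 5.94% were called higher and 8.89% lower. Among the 14 members of the list with at least 1 CPM in all 5 libraries, 3 rose and 1 fell, at a median of 0.35. The 1 fall on the list was in CXCR4, the homing receptor for CXCL12, at 307, 352 and 434 CPM in IBR and at 158 and 147 CPM in IBR_CLF (-1.24 ± 0.2, SE, adjusted p = 0.00994). CCL17, which shares its receptor with CCL22, had no signal in any IBR library and was at 6.43 and 5.33 CPM in IBR_CLF. Set against 3 reads over the whole IBR group (0.119 CPM), that is at least 49.6-fold higher, or at least 23.1-fold without IBR replicate 3, where 3 reads are worth 0.254 CPM. CXCL10, CCL4 and IL6 were also at 0 in all 3 IBR libraries, and on the same scale were at least 57.6-, 28.9- and 33.5-fold higher (26.9-, 13.5- and 15.6-fold without IBR replicate 3). LTA, the lymphotoxin-alpha gene, was at 0, 0.323 and 0 CPM in IBR and at 28 and 20.2 CPM in IBR_CLF.

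Survival genes moved in both directions. Of all tested genes 5.94% were called higher and 8.89% lower, and the share of falls on the apoptosis list was near the latter. On the apoptosis list 5 of 22 tested members rose and 2 fell, or 8 and 7 without IBR replicate 3 and 0 without either IBR_CLF library. BCL2A1, an anti-apoptotic BCL2 relative that NF-kB induces, was at 0, 0.807 and 0 CPM in IBR and at 25.7 and 26.6 CPM in IBR_CLF (4.48 ± 0.48, SE, adjusted p = 0.00277, and 0.00109 with pairs averaged over 56 libraries). BCL2L1, which encodes BCL-XL, was at 43.6, 44.4 and 71.1 CPM in IBR and at 186 and 158 CPM in IBR_CLF. BIRC3 (cIAP2), a regulator of NF-kB and of caspases, rose by 2.25 ± 0.46 (SE). Both groups of these 3 genes were separate. PMAIP1, which encodes the pro-apoptotic NOXA, rose by 1.19, and HRK, a pro-apoptotic BH3-only gene, was at 40.3, 38.6 and 30.9 CPM in IBR and at 8.73 and 9.51 CPM in IBR_CLF. The study's title names BIRC5 and MCL-1. BIRC5 (survivin) was at 237, 207 and 155 CPM in IBR and at 89.6 and 103 CPM in IBR_CLF, a fall of -1.02 ± 0.22 (SE, adjusted p = 0.0235). MCL1 was at 344, 342 and 371 CPM in IBR and at 251 and 274 CPM in IBR_CLF, which did not pass (-0.43 ± 0.17, SE, adjusted p = 0.125). BTK, the target of ibrutinib, was at 110, 113 and 97.9 CPM in IBR and at 73 and 73.8 CPM in IBR_CLF, which did not pass either (adjusted p = 0.0834). BIRC5 was not called with pairs averaged over 56 libraries (adjusted p = 0.932).

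**Figure D3:**
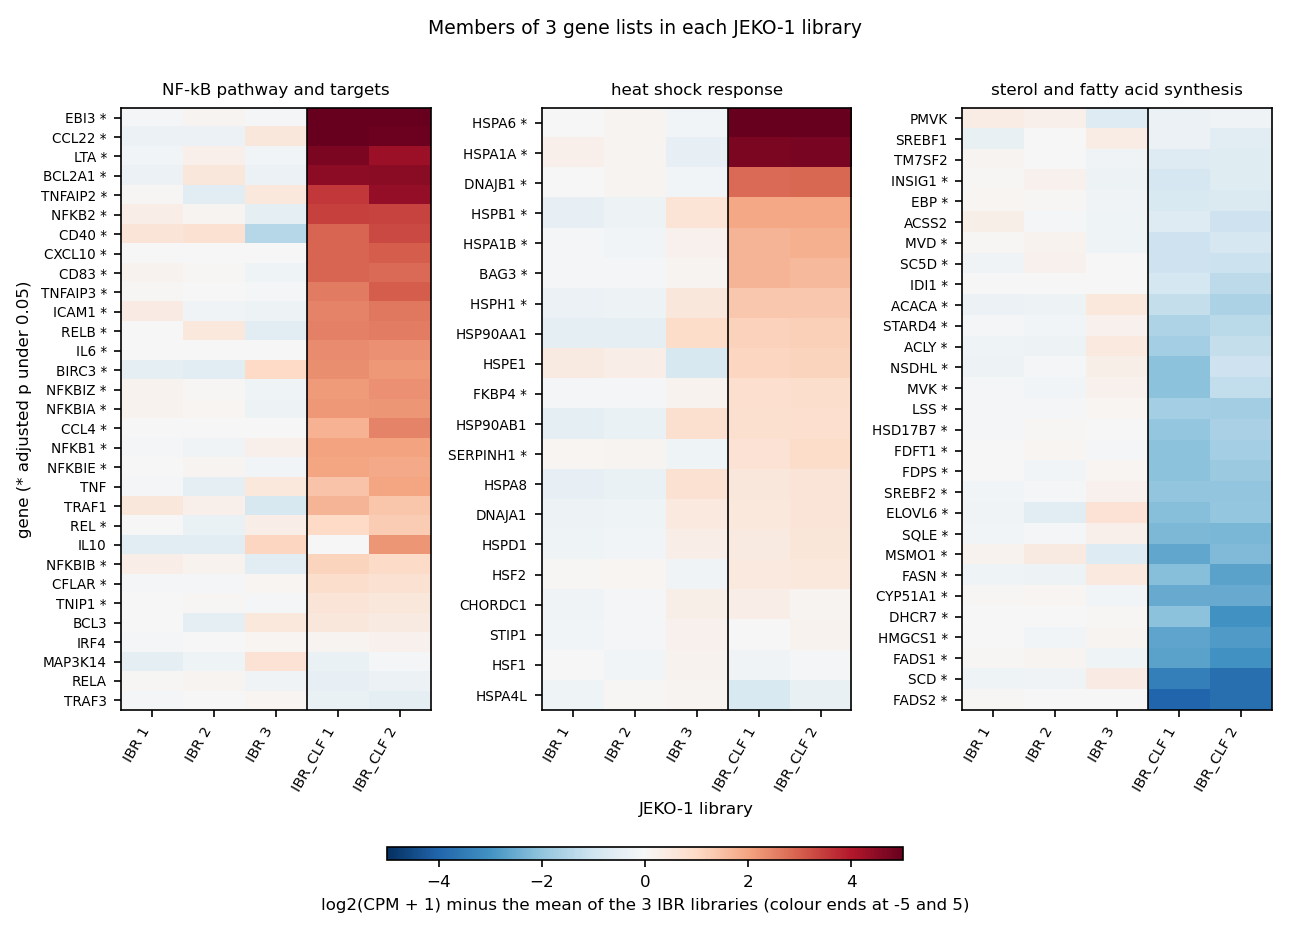
Tested members of the NF-kB, heat shock and sterol lists in the 5 JEKO-1 libraries, as the difference of log2(CPM + 1) from the mean of the 3 IBR libraries (colour), with an asterisk for an adjusted p under 0.05. NFKB2 differs by 3.4 and HSPA6 by 5.37 upward, and FADS2 by -3.88, with both IBR_CLF columns alike.

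Several chaperone genes rose. Of 20 heat shock genes, all tested, 9 rose and none fell, with a median difference of 0.84, against 5.94% of all tested genes called higher and a median of -0.07. The count was 6, 6 and 16 without IBR replicate 1, 2 and 3 and 3 without either IBR_CLF library. HSPA6 (ENSG00000173110, chr1:161524540-161526895), a strictly inducible HSP70 whose promoter is shown above with its 2 matches, was at 15.9, 17 and 14 CPM in IBR and at 647 and 723 CPM in IBR_CLF, a 43.9-fold difference of means (5.37 ± 0.19, SE, adjusted p = 6.79e-05). HSPA1A was at 24.8, 22.8 and 15.4 CPM in IBR and at 565 and 585 CPM in IBR_CLF. HSPA1B, a near-identical copy with which it can exchange reads, was at 795, 792 and 1010 CPM in IBR and at 2820 and 2950 CPM in IBR_CLF, so the split between these 2 genes is uncertain. DNAJB1, the HSP40 partner of HSP70, was at 193, 214 and 176 CPM in IBR and at 1370 and 1410 CPM in IBR_CLF. HSPB1, the small chaperone HSP27, rose by 1.95, and BAG3, which links HSP70 to autophagy, by 1.66. The constitutive chaperone HSP90AB1 was at 2660, 2910 and 6290 CPM in IBR and at 6400 and 6530 CPM in IBR_CLF and did not pass (adjusted p = 0.227), and HSF1 itself overlapped between the groups. With pairs averaged, 0 heat shock genes were called over 5 or over 56 libraries, with a median difference of 0.85 in both. As deposited, the list's median was -0.19, with 5 rises and 3 falls.

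Genes that make cholesterol and fatty acids fell. Of 33 genes on the list, 31 were tested, 27 fell and none rose, with a median difference of -1.71, against 8.89% of all tested genes called lower. In 29 of the 31 both IBR_CLF libraries lay below all IBR libraries, as they did in 29% of all tested genes. The median transcript length of the list, 3370 bases, was close to that of all genes. The count of falls was 20, 19 and 29 without IBR replicate 1, 2 and 3, and 7 and 6 without IBR_CLF replicate 1 and 2. With pairs averaged it was 0 over 5 libraries, at a median of -1.74, and 2 over 56 libraries, CYP51A1 and SCD (adjusted p = 0.0286 and 0.00764).

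In the cholesterol branch, HMGCS1, which makes HMG-CoA, was at 371, 326 and 395 CPM in IBR and at 57.9 and 49.8 CPM in IBR_CLF (-2.73 ± 0.18, SE, adjusted p = 0.000788). SQLE, squalene epoxidase, was at 358, 367 and 470 CPM in IBR and at 83.6 and 80.3 CPM in IBR_CLF. In both genes the groups were well apart. Of the regulators, SREBF2 was at 1070, 1110 and 1340 CPM in IBR and at 297 and 296 CPM in IBR_CLF and fell by 1.97 on the log2 scale. SREBF1 overlapped between the groups (16.2, 21.6 and 28.1 CPM against 17.5 and 14.1 CPM). INSIG1, which retains the SREBP factors in the endoplasmic reticulum, fell by 0.73 on the log2 scale.

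In the fatty acid branch, SCD, which puts the first double bond into saturated fatty acids, was at 1190, 1220 and 1820 CPM in IBR and at 130 and 101 CPM in IBR_CLF (-3.58 ± 0.25, SE, adjusted p = 0.000788). FADS2 (ENSG00000134824, chr11:61792980-61867355), the delta-6 desaturase, was at 283, 272 and 271 CPM in IBR and at 16.5 and 19 CPM in IBR_CLF (-3.88 ± 0.18, SE, adjusted p = 0.00021). FADS1, the delta-5 desaturase beside it on chromosome 11, was at 457, 484 and 383 CPM in IBR and at 68 and 52.5 CPM in IBR_CLF. All 3 desaturases were lower in both IBR_CLF libraries than in any IBR library. FASN, the fatty acid synthase, was at 378, 375 and 618 CPM in IBR and at 99.7 and 68.5 CPM in IBR_CLF, and ACACA, which makes its malonyl-CoA substrate, fell by 1.4 on the log2 scale.

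Of these lipid genes, FADS2 and SCD were among the 12 largest falls. MFAP4, a matrix protein gene, was at 35.8, 48.6 and 58 CPM in IBR and at 0 and 0.761 CPM in IBR_CLF (adjusted p = 0.00163). LINC03040, listed as protein-coding in the table, was at 67.8, 78 and 83.4 CPM in IBR and at 2.76 and 0.761 CPM in IBR_CLF. RIMS3, a synaptic scaffold gene, was at 95.4, 84 and 172 CPM in IBR and at 7.35 and 3.42 CPM in IBR_CLF. TP53INP1, a p53 target that acts in cell death and autophagy, was at 42.6, 37.1 and 53.1 CPM in IBR and at 0.919 and 1.9 CPM in IBR_CLF. In all 4 the groups were widely separated. SFRP5, MAP1A, CYTL1 and ZNF469 were also among the 12. SFRP5, a secreted antagonist of Wnt, had no signal in IBR_CLF and was at 10.9, 5.33 and 48.3 CPM in IBR, at least 34.5-fold lower when set against 3 reads over the IBR_CLF group (0.624 CPM). The bound was 13-fold without IBR replicate 3, the highest of the IBR libraries. MAP1A, a microtubule-associated protein gene, was far higher in IBR replicate 3 than in the other IBR libraries (159, 137 and 1490 CPM in IBR, 22 and 18.6 CPM in IBR_CLF). Of the 12 falls, 7 were also called with pairs averaged over 56 libraries, and FADS2, ZNF469, SFRP5 and MAP1A were among those that were not. The p53 list as a whole, with 26 members tested, went both ways. It had 4 rises, among them the death receptor gene FAS, and 4 falls, among them the growth-arrest gene BTG2. Of all tested genes 5.94% were called higher and 8.89% lower.

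Genes of mitosis fell in part. On the mitosis list 21 of 40 members fell and none rose, against 8.89% of all tested genes called lower. The median difference was -0.87 at a median length of 3388 bases. CDC25B, a phosphatase that starts mitosis, was at 223, 236 and 290 CPM in IBR and at 58.3 and 60.5 CPM in IBR_CLF (-2.04 ± 0.19, SE, adjusted p = 0.00215). CCNB1 (cyclin B1) was at 141, 143 and 103 CPM in IBR and at 32.2 and 43.8 CPM in IBR_CLF. MKI67, the proliferation marker Ki-67, was at 232, 231 and 401 CPM in IBR and at 80.4 and 92.5 CPM in IBR_CLF. These 3 did not overlap between groups, but CDK1 and the kinases PLK1 and AURKA did. On the DNA replication list 8 of 43 fell and 1 rose (median -0.55), against the same 8.89%. UHRF1, which carries DNA methylation through replication, was at 61.7, 73.2 and 113 CPM in IBR and at 11.6 and 14.4 CPM in IBR_CLF. The mitosis count was 11, 11 and 34 without IBR replicate 1, 2 and 3, 14 with size factors, and 0 without either IBR_CLF library or with pairs averaged. The count of falls on the replication list was 4, 3 and 17 without IBR replicate 1, 2 and 3, and 0 without either IBR_CLF library or with pairs averaged. Among genes of homologous recombination and the damage checkpoint 4 of 32 fell, a share near the 8.89% of all genes, and none rose (median -0.66 at a median length of 4838 bases). There were 1, 2 and 10 falls without IBR replicate 1, 2 and 3, at a median of -0.36 without replicate 3, and 0 without either IBR_CLF library. BRCA1 was at 50.6, 59.7 and 88.3 CPM in IBR and at 17 and 16 CPM in IBR_CLF.

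Replication-dependent histone genes went the other way. Of 60 on the list 38 were tested, 10 rose and none fell, with a median difference of 1.74, against 5.94% of all tested genes called higher. H1-2, a linker histone gene, was at 24.3, 14.4 and 9.7 CPM in IBR and at 160 and 142 CPM in IBR_CLF (3.24 ± 0.36, SE, adjusted p = 0.00316). H2BC8 was at 0.357, 0.323 and 0.518 CPM in IBR and at 8.27 and 7.99 CPM in IBR_CLF. As H2BC8 was under 1 CPM in every IBR library, it entered the test only through IBR_CLF. Among the 20 members with at least 1 CPM in all 5 libraries, 7 rose and none fell, at a median of 1.16. In 33 of all 38, H2BC8 included, both IBR_CLF libraries lay above all IBR libraries, against 22.6% of all tested genes. These mRNAs normally end without a poly-A tail, they come from near-identical copies among which reads may be split, and at a median length of 506 bases they are short. On a list of RNAs that are mainly nuclear or lack a poly-A tail, 3 of 10 tested rose, at a median of 1.59 and against the same 5.94%. The list also holds the snoRNA host genes SNHG1 and GAS5, and SNHG1 was 1 of the 3. Without IBR replicate 3, 9 rose at a median of 0.99, and without either IBR_CLF library 0 rose. MALAT1 was at 320, 283 and 82.5 CPM in IBR and at 1310 and 1190 CPM in IBR_CLF, and RPPH1, the RNA of RNase P, was at 83.3, 74.6 and 10.4 CPM in IBR and at 343 and 252 CPM in IBR_CLF. In both, IBR replicate 3 was the lowest. The part of RNA quality or capture in the histone difference was not tested. Without IBR replicate 3, 21 histone genes rose at a median of 1.34, without either IBR_CLF library 0 rose, and with pairs averaged over 56 libraries 1 rose.

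Antigen presentation genes rose in part. Of 26 MHC genes tested 11 rose and none fell (median 0.94, and -0.08 as deposited), against 5.94% of all tested genes called higher. HLA-E, a non-classical class I gene read by NK cells, was at 153, 158 and 96.4 CPM in IBR and at 615 and 633 CPM in IBR_CLF (2.22 ± 0.24, SE, adjusted p = 0.00293). HLA-B was at 468, 447 and 330 CPM in IBR and at 1590 and 1490 CPM in IBR_CLF. In class II, CD74, the invariant chain, was at 1410, 1480 and 1450 CPM in IBR and at 3120 and 3030 CPM in IBR_CLF, and HLA-DMB, which loads peptides, rose by 2.4. CIITA, the class II transactivator, was not called (60, 57.9 and 126 CPM against 41.9 and 57 CPM). HLA genes are similar in sequence, and reads may be split among them. Without IBR replicate 3, 16 MHC genes rose and 3 fell, and without either IBR_CLF library, or with pairs averaged, no MHC gene was called. Interferon-stimulated genes did not move together: 3 of 33 rose and 5 fell, against 5.94% of all tested genes called higher and 8.89% lower. Without IBR replicate 3, 13 rose and 7 fell. STAT2 was at 195, 211 and 248 CPM in IBR and at 66.6 and 58.6 CPM in IBR_CLF.

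On the list of immediate early genes, which respond within minutes to signals, 10 of 22 tested rose and 1 fell (median 1.15), and 6 rose without IBR replicate 1 and 1 without either IBR_CLF library. Of all tested genes 5.94% were called higher and 8.89% lower. Among the 17 members with at least 1 CPM in all 5 libraries, 7 rose and 1 fell, at a median of 1.11. IER5 was at 78.6, 95.4 and 73.7 CPM in IBR and at 514 and 518 CPM in IBR_CLF (2.64 ± 0.18, SE, adjusted p = 0.000788). DUSP1, a phosphatase of MAP kinases, was at 7.31, 9.36 and 2.44 CPM in IBR and at 37.2 and 37.3 CPM in IBR_CLF. EGR1 did not pass (adjusted p = 0.157). On the B-cell receptor list, where ibrutinib acts, 4 of 29 tested rose and 4 fell, against the same 5.94% and 8.89%. SYK, the kinase above BTK, was at 381, 386 and 495 CPM in IBR and at 184 and 181 CPM in IBR_CLF. CD79B, a signalling chain of the receptor, was at 232, 221 and 228 CPM in IBR and at 98.3 and 104 CPM in IBR_CLF. PTPN6 (SHP-1), a phosphatase that restrains the receptor, was at 7.13, 13.6 and 3.26 CPM in IBR and at 80.8 and 62.4 CPM in IBR_CLF. These 3 genes did not overlap between groups, and none of them was called with pairs averaged over 56 libraries (adjusted p = 0.247 to 0.781).

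NRF2 targets, the antioxidant genes, had 9 falls and no rise among 28 tested (median -0.4). For this list and those that follow, 5.94% of all tested genes were called higher and 8.89% lower. NQO1, a quinone reductase, was at 53.5, 49.1 and 116 CPM in IBR and at 25.7 and 24.7 CPM in IBR_CLF. HMOX1, a target that also answers to haem, overlapped between groups. The count of NRF2 falls was 4 and 1 without IBR replicate 1 and 2, 15 (with 3 rises) without replicate 3, and 0 without either IBR_CLF library. Among targets of the integrated stress response 3 of 33 tested rose and 1 fell: ATF3 was at 172, 162 and 50.7 CPM in IBR and at 458 and 578 CPM in IBR_CLF, and the amino acid transporter chain SLC3A2 rose by 1.58. The unfolded protein response list had 1 rise (XBP1, 1.13) and 1 fall (ERN1, its upstream enzyme, -0.98) among 20. Of 38 lysosome and autophagy genes tested 5 rose and 3 fell, and TFEB, their master regulator, was at 70.3, 78.1 and 94.2 CPM in IBR and at 235 and 250 CPM in IBR_CLF. On the MYC and ribosome biogenesis list 6 of 32 rose, ODC1 and NME1 among them, and 1 fell. Of 37 genes of glycolysis and hypoxia tested 1 rose, ANKRD37, and 3 fell, and of 37 proteasome genes 2 rose and 2 fell. The shares on the unfolded protein response, glycolysis and proteasome lists were near or below those of all genes. Leaving out IBR replicate 3 raised the counts of these lists, to 13 rises and 8 falls for the integrated stress response, 16 and 4 for MYC and ribosome biogenesis, 10 and 12 for lysosome and autophagy, 9 and 10 for glycolysis and hypoxia, 2 and 9 for the unfolded protein response, and 10 and 5 for the proteasome.

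**Figure D4:**
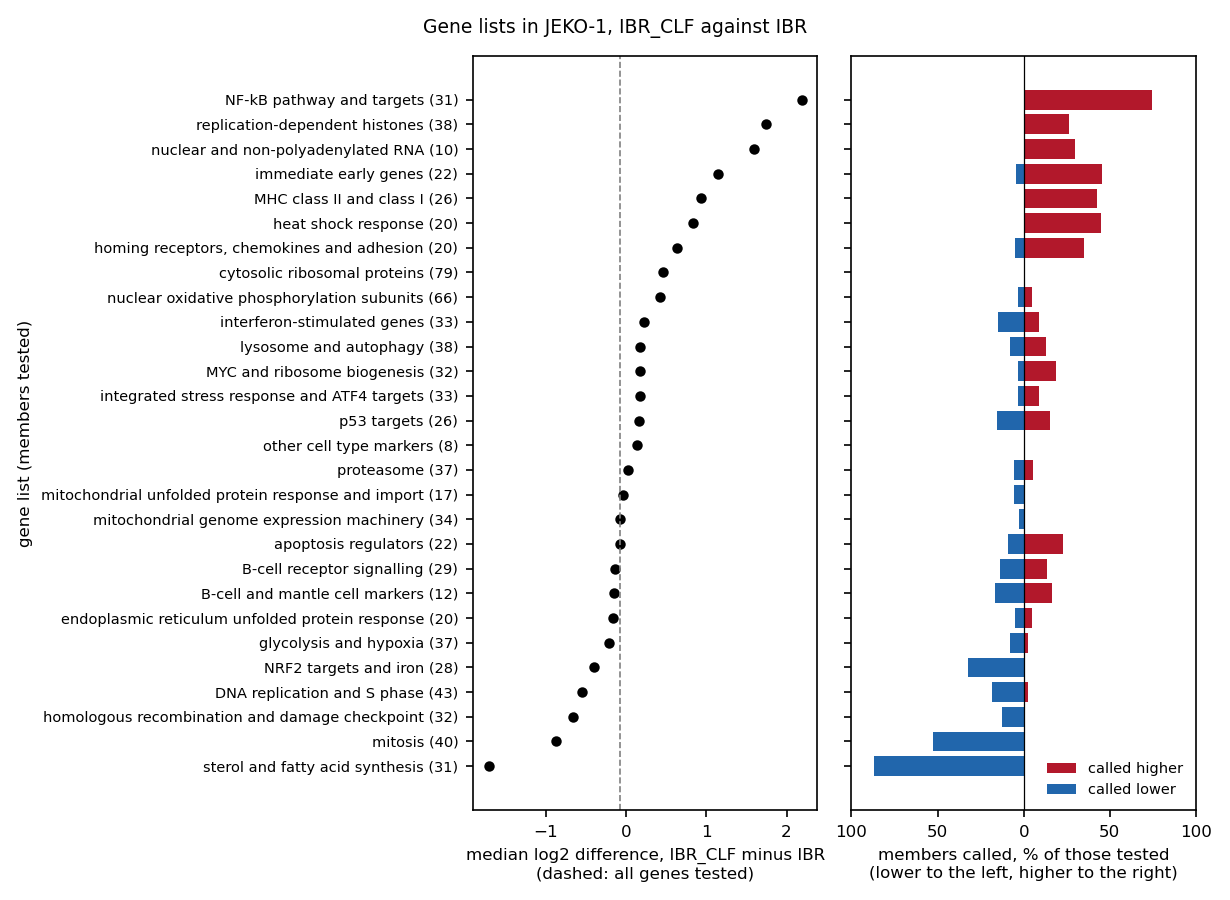
For each of the 28 gene lists, the median log2 difference of IBR_CLF from IBR in JEKO-1 (left, dashed line at the median of all genes) and the percentage of tested members called higher or lower (right). The NF-kB list lies at the top with a median of 2.19 and the sterol and fatty acid list at the bottom with -1.71.

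Whether the JEKO-1 difference was larger than that of the other lines was tested directly, as the JEKO-1 difference minus the mean of the differences in MINO-P, MINO-VR and Z138 (19 libraries, 15752 genes). It was called in 1346 genes, 615 higher in JEKO-1 (3.9%) and 731 lower (4.64%), of which 988 were also among the 2052. MINO-P and MINO-VR are 2 sublines of MINO, and each had the same weight as Z138 in the mean of the other lines. The averaged fit of this contrast kept the Z138 name pairs separate and had 5 residual degrees of freedom. With pairs averaged 42 genes were called, 40 higher and 2 lower. The count was 461 and 526 without IBR_CLF replicate 1 and 2 of JEKO-1. On the NF-kB list 17 of 33 were higher in JEKO-1 and none lower (5 with pairs averaged), and the list's median difference was 0.07 in MINO-P, -0.11 in MINO-VR and 0.14 in Z138. On the sterol and fatty acid list 21 of 32 were lower in JEKO-1 (0 with pairs averaged), and the medians were -0.35, -0.07 and 0.81. For SCD the mean level went from 195 to 101 CPM in MINO-P, from 357 to 273 CPM in MINO-VR and from 639 to 1080 CPM in Z138. On the mitosis list 10 of 40 were lower and on the histone list 14 of 42 higher, 0 of both with pairs averaged, and in each of the other lines the median had the opposite sign (0.33, 0.72 and 0.43 for mitosis, -0.24, -0.43 and -0.55 for histones).

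For the leading heat shock genes the values of the other lines are given as means with their SD, over 3 IBR libraries (2 in Z138) and 2 IBR_CLF libraries, and were not tested line by line. HSPA6 went from 516 ± 387 to 2480 ± 103 CPM in MINO-P, from 234 ± 164 to 234 ± 3.76 CPM in MINO-VR and from 419 ± 221 to 178 ± 244 CPM in Z138. DNAJB1 went from 775 ± 492 to 2480 ± 133 CPM in MINO-P, from 727 ± 343 to 615 ± 6.75 CPM in MINO-VR and from 1670 ± 1540 to 409 ± 326 CPM in Z138. In Z138 and MINO-VR the difference of means was within the spread of the libraries. Of 20 heat shock genes 3 were called higher in JEKO-1 than in the mean of the other lines. That mean joined opposite differences, as the list's median was 1.22 in MINO-P, -0.22 in MINO-VR and -1.11 in Z138. In MINO-P 19 of the 20 differences were above 0, against 18 in JEKO-1 at a median of 0.84. A rise of the list was thus seen in MINO-P as well. NGFR went from 0.179 ± 0.168 to 7.33 ± 1.59 CPM in MINO-P, CX3CL1 from 0.495 ± 0.547 to 2.37 ± 0.55 CPM and EBI3 from 0.446 ± 0.772 to 6.94 ± 2.95 CPM, also without a test within that line. FAM225A had no signal in IBR or IBR_CLF libraries of the 3 other lines.

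**Figure D5:**
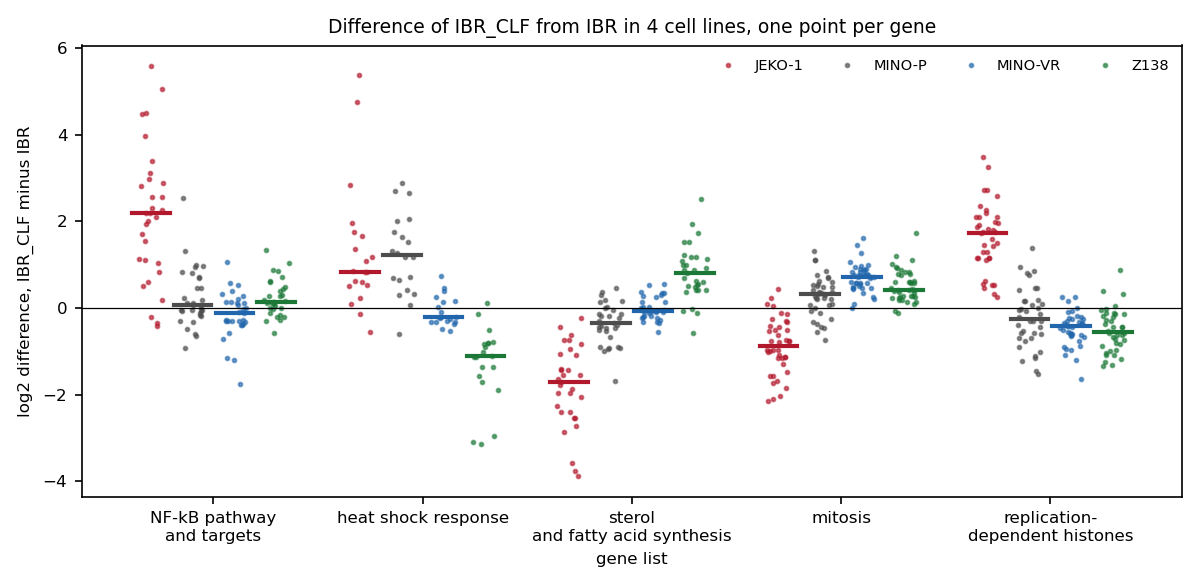
Log2 difference of IBR_CLF from IBR (y axis) in each of 4 lines for the genes of 5 lists, 1 point per gene tested in JEKO-1, with bars at the medians. The NF-kB median is 2.19 in JEKO-1 and between -0.11 and 0.14 elsewhere, and the heat shock medians run from 1.22 in MINO-P to -1.11 in Z138.

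Whether CLF did more in the presence of IBR than without it was tested over 8 JEKO-1 libraries, with the difference of CLF (2 libraries) from CON (1 library) as the reference, so that CON is assumed to vary as the others do. In 14222 genes 43 were called, 23 higher (0.162%) and 20 lower (0.141%), and 2162 had an unadjusted p under 0.05. With pairs averaged 0 were called by limma (1164 unadjusted), without CLF replicate 1 or 2 it was 156 and 3, and without either IBR_CLF library 0 (1473 and 1521 unadjusted). Without IBR replicate 1, 2 or 3 it was 5, 8 and 318. The 12 largest rises and falls were chosen by the difference of IBR_CLF from IBR. That difference is part of this contrast, so calls among them add no separate support. CX3CL1 was at 1.19 CPM in CON and 0.293 and 0 CPM in CLF, and NGFR at 0.0541 CPM in CON and 0.0586 and 0.421 CPM in CLF. SCD was at 681 CPM in CON and 715 and 1620 CPM in CLF, and FADS2 at 164 CPM in CON and 168 and 247 CPM in CLF. Under CLF alone NGFR and CX3CL1 were at most 0.421 CPM, and SCD and FADS2 lay within the range of IBR or below it and above their level in IBR_CLF. Of 33 NF-kB genes 6 were called higher in this contrast and of 31 lipid genes 6 lower.

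The JEKO-1 libraries labelled BTZ and BTZ_CLF had mitochondrial shares of 67.6%, 67.5% and 9.92% and of 80.5% and 65.5%, and their values for the same genes are set side by side without a test. HSPA6 was at 5380, 5420 and 87.2 CPM in BTZ and at 5110 and 5970 CPM in BTZ_CLF, above its level in IBR_CLF except in BTZ replicate 3. SCD was at 540, 583 and 832 CPM in BTZ and at 527 and 614 CPM in BTZ_CLF, against 130 and 101 CPM in IBR_CLF. NFKB2 was at 173, 153 and 1.33 CPM in BTZ and at 98.3 and 136 CPM in BTZ_CLF, against 964 and 952 CPM in IBR_CLF. NGFR was at most 4.46 CPM in the 5 BTZ and BTZ_CLF libraries.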

How the data were processed

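The deposited table held 21596 genes and 56 libraries as log2(CPM + 1), on hg38 and made with Partek per the submitters' processing notes. Aligner, counter, annotation and strand are not given in the sources used here. The log2 was undone, the 15 mitochondrial genes were left out and each library was rescaled to 1e+06. Depth was recovered from the steps between low values. The steps did not give whole reads throughout (within 0.03 of a whole number), so no count model was fitted. A gene entered a fit when 2 of its libraries or more held 1 CPM, and it was tested with limma 3.58.1 (R 4.3.3, intensity trend) on log2(CPM + 1), with Benjamini-Hochberg adjustment and a call at 0.05. Fold changes on this scale are understated for low genes. The 3 comparisons were JEKO-1 IBR_CLF against IBR, that difference minus the mean of the other lines, and the CLF difference with and without IBR. The fitting script was tested on simulated data. Alternatives changed scaling, pseudocount, filter, trend, libraries in the fit and the treatment of name pairs, and left out each JEKO-1 library. Named genes were the 12 largest rises and falls with at least 10 CPM and no overlap, up to 4 called members of each list, BTK, BIRC5 and MCL1, and 5 genes per direction in each contrast. Other list members were named for their role after their values were seen. The genes and the 28 lists were chosen with earlier results of these data known. The libraries share no replicate numbers in the labels. Only the final letter of library names could pair them, and it was used as a block in 1 alternative. Transcript lengths came from GENCODE and promoter windows from RefSeq, matched by symbol. Floors of 3 reads cover counting error only. Some genes that were counted are not reported by name here.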

Additional observations from a re-analysis of the deposited data

Results flagged for a closer look

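In 1346 genes the JEKO-1 difference between IBR_CLF and IBR departed from the mean difference of the other 3 lines by limma's test of that contrast. The 5 largest per direction with a mean of at least 10 CPM are given. On the log2 scale the JEKO-1 difference was higher by 6.89 for FAM225A, 6.33 for CX3CL1, 6.05 for NGFR, 5.29 for HSPA6 and 4.97 for HSPA1A. It was lower for MFAP4 (-6.52), LINC03040 (-5.14), FADS2 (-4.36), SFRP5 (-4.22) and RIMS3 (-4.04). For HSPA6 the other lines went both ways, at 2.88 in MINO-P, 0.46 in MINO-VR and -3.09 in Z138. Name pairs of Z138 stayed separate in the averaged fit that follows. JEKO-1 IBR_CLF was 1 sample in that fit, and the spread came from other groups. With name pairs averaged, FAM225A, CX3CL1 and NGFR passed (adjusted p = 0.000283, 0.00165 and 0.0207) and the other 7 did not.

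In 43 genes the CLF difference in JEKO-1 depended on the presence of IBR by the test of the interaction. The 5 largest per direction with a mean of at least 10 CPM are given. The CLF difference was higher with IBR by 7.65 for CX3CL1, 6.83 for FAM225A, 6.72 for NGFR, 6.3 for CCL22 and 5.98 for EBI3. It was lower for LINC03040 (-5.55), RIMS3 (-4.44), SCD (-4.24), FADS2 (-4.19) and TP53INP1 (-4.09). The reference is 1 CON library, and none of the 14222 genes was called by limma with name pairs averaged (1164 at an unadjusted p under 0.05).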

How the results depend on the processing

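Calls in JEKO-1 (2052) became 7632 as deposited with mitochondrial rows kept, 173 with the spread of all 15 JEKO-1 libraries, 1359 without the intensity trend and 939 with the library-name suffix as a replicate block. With name pairs averaged they were 0 over 5 or 15 libraries (1386 and 705 at an unadjusted p under 0.05) and 254 over 56. Leaving out 1 library gave 23 to 4828. The contrast with the other lines (1346) gave 6699 as deposited, 42 with pairs averaged and 461 to 1215 with 1 JEKO-1 library left out. The CLF by IBR contrast (43) gave 2838 as deposited, 0 with pairs averaged and 0 to 318 with 1 library left out. Size factors, pseudocounts of 0.5 and 0.1 and both filters kept the first count between 1441 and 1979, and leaving out mitochondrial pseudogenes as well, chosen after seeing the data, gave 2020. The cause of these shifts was not tested, beyond the fewer samples of the averaged and leave-out fits. As deposited, the median of all genes moved to -1, 12 of 28 lists changed the sign of their median, and 5 named genes reversed: ASNS to -0.28, ATP5F1D to -0.07, MS4A1 to -0.26, NDUFB9 to -0.06 and PSMA7 to -0.07. Size factors changed the sign of 4 list medians. The 2 IBR_CLF libraries hold 2.18 and 2.63 M reads outside the mitochondria, which limits low genes there.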

Other observations

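The mitochondrial genes themselves, left out of all tests, differed in their mix. MT-RNR1, the small ribosomal RNA, took 10.5%, 10.8% and 11.1% of mitochondrial signal in the 3 IBR libraries and 4.02% and 4.08% in the 2 IBR_CLF libraries. MT-ND4, a subunit of complex I, took 5.01%, 5.47% and 8.08% in IBR and 9.77% and 10.4% in IBR_CLF, and MT-ATP6 1.81%, 1.85% and 2.49% against 3.28% and 3.5%. MT-RNR2, the large ribosomal RNA, overlapped between the groups (61.5%, 59.8% and 40.5% in IBR, 53.4% and 51.9% in IBR_CLF). MT-CO1 overlapped too.

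Few nuclear genes that serve the mitochondria or make protein were called by the same test. Of all tested genes 5.94% were called higher and 8.89% lower. Of 79 cytosolic ribosomal protein genes none was called, at a median difference of 0.46 and a median length of 1857 bases. Without IBR replicate 3, 16 rose and 13 fell, and the median was 0, with 40 of the 79 above 0. Of 66 nuclear subunits of oxidative phosphorylation 3 rose and 2 fell (21 and 5 without IBR replicate 3), at a median of 0.42 (0.16 without IBR replicate 3) and a median length of 1510 bases. SDHA, a subunit of complex II, was at 106, 112 and 152 CPM in IBR and at 45.6 and 42.8 CPM in IBR_CLF. Of 34 genes that express the mitochondrial genome 1 fell, POLG, and of 17 genes of the mitochondrial unfolded protein response and import 1 fell, LONP1, the matrix protease.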
